A study of Rattus norvegicus with 9 samples.

Results

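The cytosolic ribosomal protein genes on a rat kidney array were compared between 3 inbred strains. A member was any probe whose RefSeq transcript now carries a rat symbol of the Rpl or Rps series, Rplp or Rpsa, with the S6 kinases, the Rps19 binding protein and pseudogenes left out. This gave 78 of 24684 probes, for 76 of the 13897 genes that had a symbol, 47 of the large (60S) and 29 of the small (40S) ribosomal subunit. The choice used symbols and no measured value. Kidney RNA came from male Dahl salt-sensitive rats (Dahl S), spontaneously hypertensive rats (SHR) and Dahl salt-resistant rats (Dahl R), with 3 arrays for each strain. All animals were 53 days old, were weaned at 30 days and then ate a diet with 0.3% salt. No group carried an engineered allele or received a drug, so the strain is the only labelled difference. No label mentions litters or preparation days, so p-values here measure the spread between these samples, part of which may be technical. Each array was read in a single colour, and a value is the log2 signal of a probe minus the log2 of the 75th percentile over all spots on its array. A value of 0 is therefore the signal that 75% of the spots do not exceed.

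Ribosomal proteins are built into the small subunit, which decodes the mRNA, and the large subunit, which forms peptide bonds. Their mRNAs are among the most abundant in most cells, and in mammals they characteristically begin with a C followed by an unbroken run of pyrimidines, the 5′ terminal oligopyrimidine tract. Through this tract their translation is switched on and off by the mTOR kinase with the protein Larp1, so the mRNA level and the rate of protein synthesis can part ways. The kidney's tubule cells carry a heavy load of transporters and enzymes, all made on these ribosomes.

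To show such starts in the pair Rpl22 and Rpl22l1, in Rpl19 and Rps6, and in 2 other named members, the 30 bases around the annotated transcription start are given, from 10 bases before it. They were picked to include starts with and without the tract. Capitals mark the C at the first transcribed base and the pyrimidines that follow it, where there are at least 4.
Rpl22: gcgcccccctCCCTTTCTgcctcctctgcc
Rpl22l1: gtggatatccggttccgagttgcgcagcgc
Rpl19: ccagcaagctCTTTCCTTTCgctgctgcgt
Rps6: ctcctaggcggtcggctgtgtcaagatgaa
Rplp1: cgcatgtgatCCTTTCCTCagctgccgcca
Rps27: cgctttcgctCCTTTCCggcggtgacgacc
These are RefSeq starts on the rat build GRCr8, read 5′ to 3′ on the gene's own strand. Rpl22 lies at chr5:168117951-168117980 and Rpl22l1 at chr2:113683186-113683215, both on the plus strand, as is Rpl19 at chr10:83519054-83519083. The other windows are on the minus strand, with Rps6 at chr5:106420521-106420550, Rplp1 at chr8:71290853-71290882 and Rps27 at chr2:177964587-177964616. RefSeq starts were matched for 61 of the 76 member genes, with 62 entries. Of those entries 21 (33.9%) began with a C and at least 4 pyrimidines on the gene's strand, against 881 of all 33469 entries in the table (2.63%). Rpl22 and its paralog Rpl22l1 differ here: the first has an 8-base tract, and those letters are not at the annotated start of the second. Rps6 shows none at its annotated start either, which says nothing of starts the annotation lacks. The median difference over the 20 tested genes with a tract was 0.05 for Dahl S minus Dahl R, -0.003 for SHR minus Dahl R and 0.12 for Dahl S minus SHR. Over the 37 tested genes without one at the annotated start these medians were 0.06, -0.04 and 0.07.

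Most members gave bright, repeatable signals. Of the 76 genes, 72 were tested, 44 of the 60S and 28 of the 40S subunit, through 74 probes. Testing required that a share of 0.5 or more of a probe's spots stood well above background on 3 arrays or more, and that each strain kept a usable spot. Rpl10, Rpl11 and Rpl27l2 were too dim, with 2, 0 and 1 arrays well above background. The Rps10 spot was bright on all 9 arrays but was marked as an outlier on all except Dahl S replicate 1 and SHR replicate 2. Among the tested genes 69 were well above background on all 9 arrays, and 65 had a mean more than 3 log2 units above the 75th percentile. The median member value per array ran from 6.27 to 6.33 in Dahl S, from 6.23 to 6.73 in SHR and from 6.25 to 6.31 in Dahl R. The highest SHR value is that of replicate 3, where it covers 26 genes. In total RNA, fewer cells of a type and less RNA per cell cannot be told apart.

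Facts about 2 arrays touch these genes. SHR replicate 3 was the one array of its scan, with a median local background of 88 against 43 to 45 on the others and 36.3% of spots well above background against 53.7% to 65.5%. The 75th percentile of its signal was 1462 over all spots and 710 over unmarked spots, a gap no other array showed. On this array, the scanner software marked 57 of the 96 member spots (59.4%) as uneven, against 7.93% of all spots on that array. On the other 8 arrays it marked 0 to 3.12% of member spots. As a result 46 of the 72 tested genes had no usable spot on SHR replicate 3, and their SHR mean rests on replicates 1 and 2. On Dahl S replicate 1, 62 of 3693 bright spots lay more than 4 log2 units below their median over the arrays, and 35 of those carried no outlier mark. The other arrays had 0 to 4 such spots each. No spot was saturated (0 spots). From 83.3% to 90.6% of member spots on each array were so bright that the software took them from a second scan at low gain and scaled them up, against 6.37% to 9.84% of all spots.

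**Figure D1:**
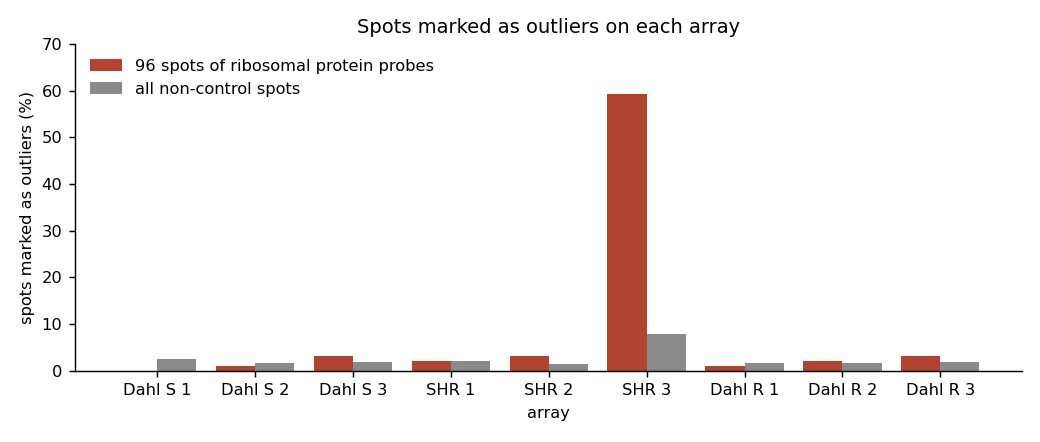
Share of spots (percent) that the scanner software marked as outliers on each array, for the 96 spots of ribosomal protein probes and for all non-control spots. SHR replicate 3 stands alone with 59.4% of the ribosomal protein spots marked, against 7.93% of all spots; the other 8 arrays lie between 0 and 3.12% for ribosomal protein spots.

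Few of the 72 genes differed between strains, and most differences were small. In Dahl S against Dahl R, limma called 0 genes at an adjusted p under 0.05, where 1.40% of all 16592 tested probes were called, 0.705% higher and 0.699% lower. At an unadjusted p under 0.05, 2 members were higher in Dahl S and 0 lower, against 5.98% higher and 4.52% lower of all probes. In SHR against Dahl R, 1 gene was lower and 0 higher, where 13.0% of all probes were called, 5.49% lower and 7.56% higher. Dahl S against SHR had 2 genes higher and 0 lower, where 15.7% of all probes were called, 7.08% higher and 8.62% lower. At an unadjusted p under 0.05 the members counted 1 higher and 5 lower in SHR against Dahl R, where 17.4% of all probes were higher and 10.6% lower. In Dahl S against SHR they counted 9 higher and 1 lower, where 12.7% of all probes were higher and 18.8% lower. These comparisons share their strains' arrays with one another, so they are not independent.

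The spread of the differences was narrow. A fitted difference of less than 0.25 log2 units in size was found for 63 of 72 genes (87.5%) in Dahl S minus Dahl R, against 67.6% of all tested probes. The same held for 60 genes (83.3%) in SHR minus Dahl R, against 44.5% of all probes, and for 54 genes (75%) in Dahl S minus SHR, against 42.6%. Without SHR replicate 3 these shares were 86.1% against 54.4% in SHR minus Dahl R and 75% against 49.5% in Dahl S minus SHR. Most of the 37 elongation and initiation factors described below also differed by less than 0.25 in each comparison. A narrow spread is thus not particular to the ribosomal protein genes, and probes of like brightness were not set apart. The 95% intervals lay wholly within a 2-fold change either way for 67, 64 and 66 genes in those comparisons, so for those genes a larger strain difference is outside the interval. The median difference of the members was 0.06 in Dahl S minus Dahl R, with 0.02 over all tested probes. In SHR minus Dahl R it was -0.03, with 0.11 over all probes, and in Dahl S minus SHR it was 0.11, with -0.09 over all probes. Without SHR replicate 3, which most members leave out and most probes do not, the medians over all probes were 0.04 and -0.03 in the last 2 comparisons, and those of the members -0.05 and 0.13. Quantile normalization turned the medians over all probes to -0.02 and 0.03. With normexp background correction the members' medians were -0.10, -0.03 and -0.05, so the direction in both Dahl S comparisons depends on the background step. That step also moved the median over all probes, to 0.14 in Dahl S minus Dahl R and to 0.11 in Dahl S minus SHR.

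**Figure D2:**
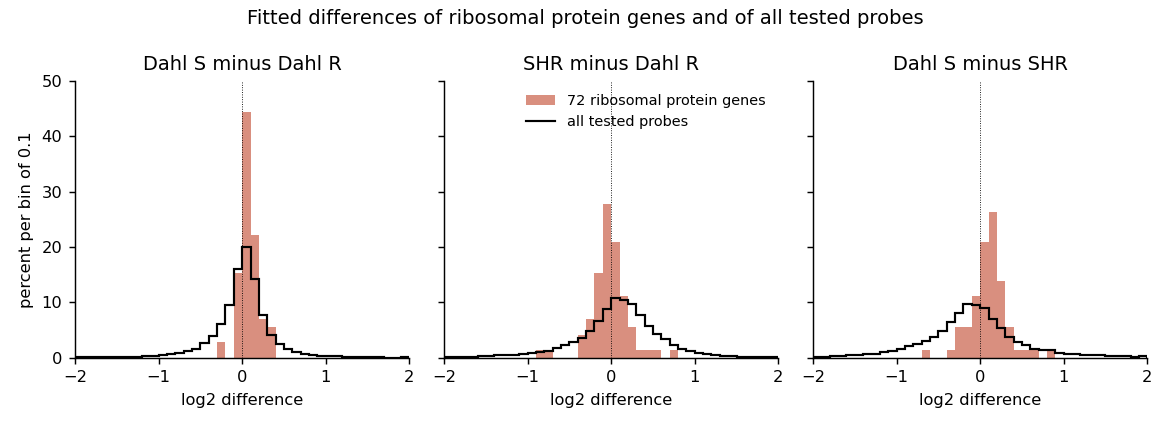
Distribution of fitted log2 differences in bins of 0.1 for the 72 ribosomal protein genes (filled) and the 16592 tested probes (line), one panel for each comparison. The ribosomal protein genes gather near 0, with 87.5%, 83.3% and 75% of them within 0.25 of it; outside the axis lie 2 genes (Rpl13 and Rps14) in each comparison with Dahl S.

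Both subunits gave near-zero medians. For the 44 genes of the 60S the median was 0.06 in Dahl S minus Dahl R, 0.003 in SHR minus Dahl R and 0.09 in Dahl S minus SHR. For the 28 genes of the 40S it was 0.07, -0.08 and 0.16. In SHR minus Dahl R, 23 of the 44 large-subunit genes and 8 of the 28 small-subunit genes were positive; this contrast between subunits was not tested.

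**Figure D3:**
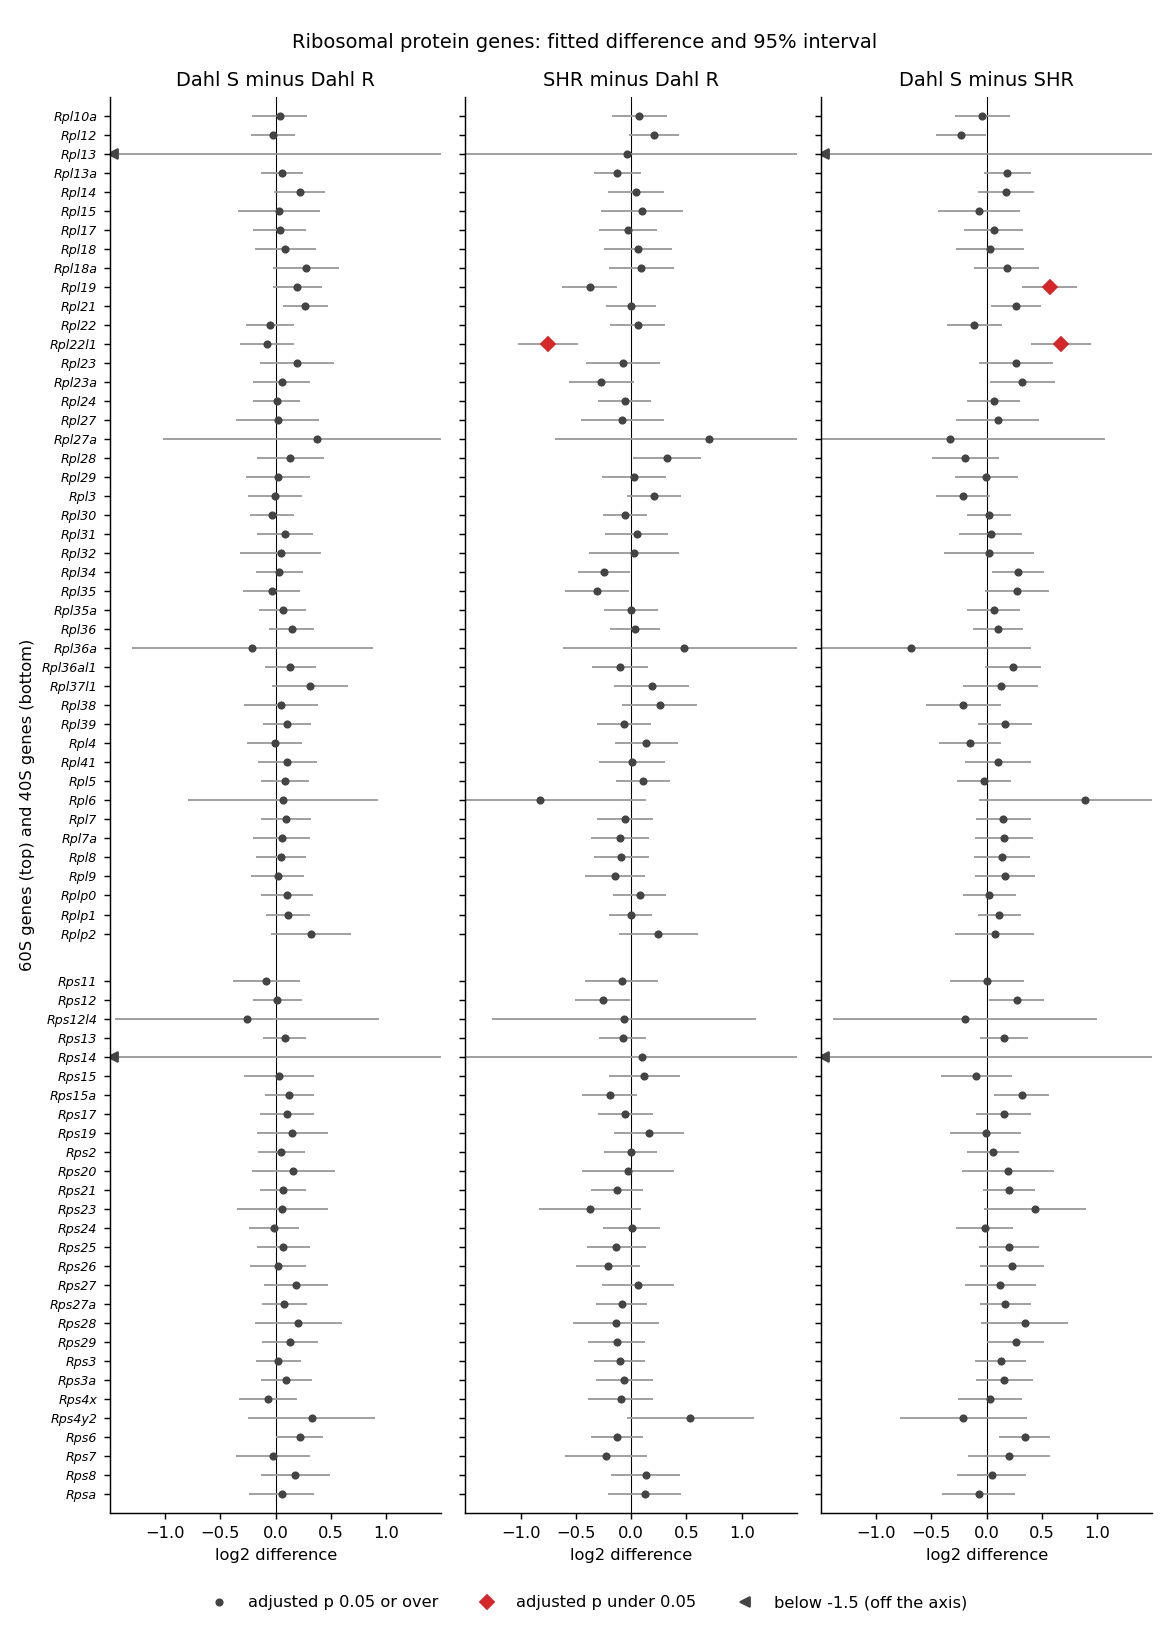
Fitted log2 difference (point) and 95% interval (line) of each tested gene, 60S above and 40S below, in the 3 comparisons; lines that reach the edge go beyond the axis, and arrows mark points below -1.5. Diamonds mark the 3 calls at an adjusted p under 0.05, which are Rpl22l1 in both comparisons with SHR and Rpl19 in Dahl S minus SHR.

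Rpl22l1, the paralog of Rpl22, was the one member that passed the test in both comparisons with SHR. Rpl22 and Rpl22l1 encode near-relatives of the same 60S position, and in mice the Rpl22 protein represses Rpl22l1 mRNA. Rpl22l1 was at 2.83, 2.73 and 2.63 in Dahl S, at 2.17 and 1.94 in SHR replicates 1 and 2, and at 2.81, 2.84 and 2.79 in Dahl R. The SHR values lay below all 6 Dahl values, which overlapped each other. In SHR the signal fell by 0.75 ± 0.11 on the log2 scale (SE, limma) relative to Dahl R, 1.69-fold lower, with an adjusted p of 0.0081. Dahl S minus SHR was 0.67 ± 0.11, 1.59-fold, with an adjusted p of 0.011. Dahl S minus Dahl R was -0.08 ± 0.10, with an adjusted p of 0.91. The marked spot on SHR replicate 3, left out of the fit, read 1.61, also below all Dahl values. Such marked readings were loose. Over the 46 marked member genes they differed from the mean of SHR replicates 1 and 2 by -1.89 to 0.56. Within the scan that holds Dahl R replicates 2 and 3 and SHR replicates 1 and 2, SHR minus Dahl R was -0.75, with an adjusted p of 0.036. No scan holds both Dahl S and SHR, and with the scan as a block Dahl S minus SHR was 0.68, with an adjusted p of 0.098. Normexp background correction ended both calls, with a Rpl22l1 difference of -0.78 (adjusted p of 0.13) in SHR minus Dahl R and of 0.53 (adjusted p of 0.25) in Dahl S minus SHR. So did a 75th percentile over unmarked spots alone, with adjusted p of 0.082 and 0.11, and without SHR replicate 2 the Dahl S minus SHR difference was 0.56, with an adjusted p of 0.051.

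Rpl22 itself did not follow its paralog. It was at 3.32, 3.34 and 3.37 in Dahl S, at 3.43 and 3.48 in SHR replicates 1 and 2, and at 3.32, 3.34 and 3.52 in Dahl R. These SHR values fell inside the Dahl R range. The marked Rpl22 spot on SHR replicate 3, left out of the fit, read 4.01, above every other array. SHR minus Dahl R was 0.06 ± 0.10 (SE, adjusted p of 0.75) and Dahl S minus SHR was -0.11 ± 0.10 (adjusted p of 0.50). As a ratio within each array, Rpl22l1 minus Rpl22 was -0.49, -0.60 and -0.74 in Dahl S, -1.25 and -1.53 in SHR, and -0.51, -0.50 and -0.73 in Dahl R. The SHR ratios lay below all 6 Dahl ratios. That pair was the only one of 7 looked for, by exact symbol, in which both paralogs had a probe with a matched symbol. Rpl36al1, close in symbol to the Rpl36al looked for, had a tested probe but was not set against Rpl36a.

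**Figure D4:**
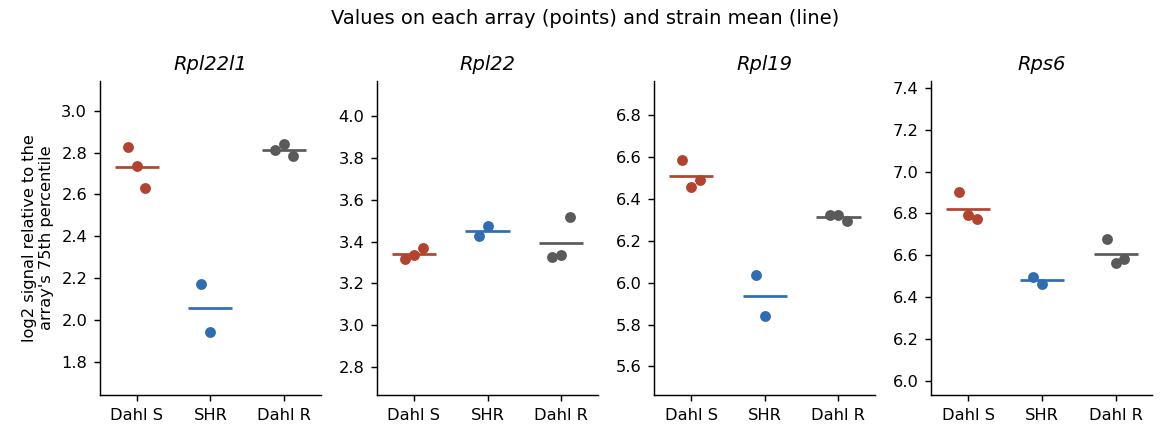
Log2 signal over the 75th percentile of the array for Rpl22l1, Rpl22, Rpl19 and Rps6, by strain; points are arrays, lines are strain means, and each panel spans 1.5 log2 units. SHR shows 2 points because the spot on replicate 3 was marked in all 4 genes. The SHR points of Rpl22l1, Rpl19 and Rps6 lie below every Dahl point, while those of Rpl22 do not.

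Rpl19, a 60S protein at the interface with the small subunit, was the other called member. It was at 6.59, 6.46 and 6.49 in Dahl S, at 6.03 and 5.84 in SHR replicates 1 and 2, and at 6.32, 6.32 and 6.29 in Dahl R. The 3 strains did not overlap. Dahl S minus SHR was 0.57 ± 0.10 (SE), 1.49-fold, with an adjusted p of 0.014. In SHR minus Dahl R the difference of -0.38 ± 0.10 had an adjusted p of 0.063, and in Dahl S minus Dahl R that of 0.20 ± 0.09 had 0.56. The marked spot on SHR replicate 3 read 6.49, inside the Dahl S range. With marked spots kept, Dahl S minus SHR was 0.39 and its adjusted p 0.16, with normexp 0.34 and 0.43, and in the authors' deposited values 0.30 and 0.21. A 75th percentile over unmarked spots, a fit on only the arrays compared and the absence of a filter on dim probes gave adjusted p of 0.14, 0.091 and 0.052. With the scan as a block it was 0.56, with an adjusted p of 0.11, and without SHR replicate 2 it was 0.48, with an adjusted p of 0.061. The call therefore rests on SHR replicates 1 and 2.

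Rps6, the 40S protein phosphorylated by the S6 kinases downstream of mTOR, came next. It was at 6.90, 6.79 and 6.77 in Dahl S, at 6.50 and 6.46 in SHR, and at 6.68, 6.56 and 6.58 in Dahl R, again without overlap. Dahl S minus SHR was 0.34 ± 0.10 with an adjusted p of 0.061, and Dahl S minus Dahl R was 0.22 ± 0.09 with an adjusted p of 0.45. Without SHR replicate 3 the first of these had an adjusted p of 0.017, and with marked spots kept it was 0.42, with an adjusted p of 0.035. It was 0.24 (adjusted p of 0.38) with the scan as a block, 0.15 (adjusted p of 0.70) with normexp and 0.21 (adjusted p of 0.16) with quantile normalization.

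Leaving out SHR replicate 3 altered the counts more than any other single array did. Without it, Dahl S against SHR had 7 of 72 member genes higher and 1 lower. Of all 16569 probes tested then, 2158 were called higher and 2187 lower. The higher member genes were Rpl19, Rpl21, Rpl22l1, Rpl23, Rpl34, Rps15a and Rps6. Apart from Rpl19 and Rpl22l1 their differences ran from 0.27 for Rpl21 to 0.39 for Rpl23, with adjusted p of 0.017 to 0.046. The lower member gene was Rps12l4, at -0.90 (adjusted p of 0.0022). In SHR against Dahl R, Rpl19 and Rpl22l1 were then lower, at -0.38 (adjusted p of 0.020) and -0.75 (adjusted p of 0.0024). Rps12l4 was higher there, at 0.63 (adjusted p of 0.0097), where 2022 of the 16569 probes were called higher and 1750 lower. Rpl22l1 and Rpl19 have no usable spot on that array, so their fitted differences were the same with and without it and their p-values alone changed.

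Rps12l4, whose symbol marks it as a relative of Rps12, is a dim probe. It was at -3.23, -3.50 and -3.42 in Dahl S, at -2.62, -2.35 and -4.58 in SHR, and at -3.07, -3.17 and -3.12 in Dahl R. SHR replicates 1 and 2 lay above all Dahl arrays and SHR replicate 3 below them. Its difference over all arrays was -0.06 ± 0.51 in SHR minus Dahl R, with an adjusted p of 0.95. Rps12 itself gave -0.26 there, with an adjusted p of 0.17.

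The ribosomal stalk, which recruits elongation factors to the 60S subunit, had no gene called in the fit over all 9 arrays. Rplp0, the stalk's base, was at 7.38, 7.28 and 7.39 in Dahl S, at 7.38, 7.38 and 7.21 in SHR, and at 7.23, 7.12 and 7.39 in Dahl R. Its ranges overlapped in all comparisons, and SHR minus Dahl R was 0.08 ± 0.10 (adjusted p of 0.66). Rplp1, an acidic stalk protein, was at 7.90, 7.93 and 7.92 in Dahl S, at 7.82, 7.73 and 7.85 in SHR, and at 7.86, 7.70 and 7.85 in Dahl R. On this 1-spot probe the Dahl S values lay above the others, by 0.11 ± 0.09 relative to Dahl R (adjusted p of 0.78). On the 10-spot Rplp1 probe the strains overlapped, and Dahl S minus SHR was -0.00038 (adjusted p of 1.00). Rplp2, its partner, was at 7.28, 7.14 and 7.23 in Dahl S, at 7.0, 6.93 and 7.50 in SHR, and at 6.98, 6.89 and 6.83 in Dahl R. Dahl S lay above Dahl R without overlap, by 0.32 ± 0.15 with a 95% interval of -0.04 to 0.68, and the adjusted p was 0.56. With array weights limma called Rplp2 higher there, with an adjusted p of 0.020.

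Rpl5, which carries 5S rRNA with Rpl11 and binds Mdm2 when ribosome assembly stalls, was at 6.05, 6.13 and 6.26 in Dahl S, at 6.19 and 6.16 in SHR, and at 6.04, 6.08 and 6.08 in Dahl R. Its differences were 0.08, 0.11 and -0.02 in Dahl S minus Dahl R, SHR minus Dahl R and Dahl S minus SHR, with adjusted p of 0.88, 0.54 and 0.89. Rps19, mutated in human Diamond-Blackfan anaemia, was at 6.56, 6.44 and 6.62 in Dahl S, at 6.35, 6.48 and 6.82 in SHR, and at 6.49, 6.28 and 6.39 in Dahl R, with overlap throughout. Its largest difference was 0.16 ± 0.14 in SHR minus Dahl R (adjusted p of 0.49).

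Rps27a, made as a fusion with ubiquitin, was at 6.63, 6.51 and 6.63 in Dahl S, at 6.43 and 6.41 in SHR, and at 6.46, 6.56 and 6.51 in Dahl R. The SHR values lay just below the others, by 0.17 ± 0.10 relative to Dahl S (adjusted p of 0.29) and by 0.09 ± 0.10 relative to Dahl R (adjusted p of 0.60). Rpsa, the 40S protein also known as the laminin receptor, was at 3.83, 3.61 and 3.43 in Dahl S, at 3.76 and 3.63 in SHR, and at 3.61, 3.57 and 3.52 in Dahl R. Its differences were 0.05, 0.12 and -0.07 in the same order, each under 1 SE in size.

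Of the genes of the other paralog pairs, Rpl3, Rpl7, Rpl39 and Rps27 are given first, and the dim Rpl36a further on. Rpl3, which shapes the peptidyl transferase centre, was at 6.26, 6.14 and 6.22 in Dahl S, at 6.28, 6.36 and 6.61 in SHR, and at 6.18, 6.23 and 6.23 in Dahl R. The SHR values lay above the others, by 0.20 ± 0.11 relative to Dahl R (adjusted p of 0.26), and Dahl S minus SHR was -0.21 (adjusted p of 0.21). Rpl7, a 60S protein, was at 5.90, 5.70 and 5.70 in Dahl S, at 5.62 and 5.61 in SHR, and at 5.70, 5.70 and 5.62 in Dahl R. SHR lay just below the lowest Dahl R value and below Dahl S, and Dahl S minus SHR was 0.15 ± 0.11. Rpl39, which lines the exit tunnel, was at 5.58, 5.44 and 5.43 in Dahl S, at 5.29 and 5.33 in SHR, and at 5.44, 5.30 and 5.40 in Dahl R. Its SHR values overlapped those of Dahl R and lay below those of Dahl S, by 0.17 ± 0.10. Rps27, a zinc-finger protein of the 40S, was at 6.93, 6.62 and 6.64 in Dahl S, at 6.62 and 6.59 in SHR, and at 6.57, 6.42 and 6.65 in Dahl R, with overlap or near contact throughout. Among Rpl7, Rpl39 and Rps27 the lowest adjusted p was 0.31, for Rpl39 in Dahl S minus SHR.

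Some of the widest differences came from single spots. Rpl13, a 60S protein, was at -3.82, 5.49 and 5.65 in Dahl S, at 5.49 and 5.40 in SHR, and at 5.45, 5.47 and 5.51 in Dahl R. Its spot on Dahl S replicate 1 gave a processed signal of 149.9, against 92866 to 131274 on the 7 other usable arrays. The fitted Dahl S minus Dahl R difference of -3.04 ± 2.42 (adjusted p of 0.79) became 0.09 without that value. Rps14, a 40S protein on the platform of the subunit, was at -3.52, 4.09 and 4.18 in Dahl S, at 4.07 and 3.99 in SHR, and at 3.93, 4.01 and 3.86 in Dahl R. Its spot on the same Dahl S array read 185.0, against 35129 to 47565 elsewhere. Here the difference of -2.35 ± 1.97 (adjusted p of 0.81) became 0.20 without it. Neither spot carried an outlier mark.

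Rpl6, a 60S protein, was at 4.06, 3.84 and 3.73 in Dahl S, at 3.75 and 2.22 in SHR replicates 1 and 3, and at 3.71, 3.83 and 3.88 in Dahl R. Replicate 1 of SHR sat among the Dahl values and replicate 3 was low. The marked spot on SHR replicate 2 read 3.42, below all 6 Dahl values. SHR minus Dahl R was -0.82 ± 0.40 (adjusted p of 0.24). Without SHR replicate 1, which leaves replicate 3 alone, it was called, at -1.59 with an adjusted p of 0.0046. Without SHR replicate 3 it was -0.06, with an adjusted p of 0.84. Wide intervals were also found for Rpl27a, Rpl36a and Rps4y2, beside Rps12l4 above. The Rpl27a and Rpl36a probes were well above background on 5 and 7 of the 9 arrays, and their SHR minus Dahl R differences were 0.71 ± 0.60 and 0.48 ± 0.47. Both were highest on SHR replicate 3, at -3.80 and -3.62, against -6.06 and -6.35 and against -5.68 and -5.04 on the other SHR arrays. Rps4y2, a relative of Rps4x by its symbol, was at 1.64, 0.73 and 1.5 in Dahl S, at 1.59, 1.24 and 1.68 in SHR, and at 1.06, 1.08 and 0.75 in Dahl R. The SHR values lay above all Dahl R values and overlapped those of Dahl S. The gene gave 0.33 ± 0.25 in Dahl S minus Dahl R and 0.54 ± 0.25 in SHR minus Dahl R, with adjusted p of 0.78 and 0.21.

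Repeat spots set the precision within an array. The arrays carry 10 spots of 1 probe each for Rpl13a and Rplp1, beside a second probe with 1 spot. The SD over the usable repeat spots was 0.05 to 0.09 for Rpl13a on 8 arrays and 0.03 to 0.16 for Rplp1 on 9 arrays. On SHR replicate 3 all 10 Rpl13a spots were marked as uneven, and their mean of 5.70 lay above the 5.40 and 5.36 of SHR replicates 1 and 2. The 2 probes of a gene differed by at most 0.15 on any array for Rpl13a and by at most 0.18 for Rplp1. Between animals of a strain, the within-strain SD of the 72 genes had a median of 0.11, against 0.23 over all tested probes. It was under 0.2 for 62 genes (86.1%), against 43.4% of all tested probes. Without SHR replicate 3 the medians were 0.10 and 0.14, and the shares under 0.2 were 91.7% and 67.6%.

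**Figure D5:**
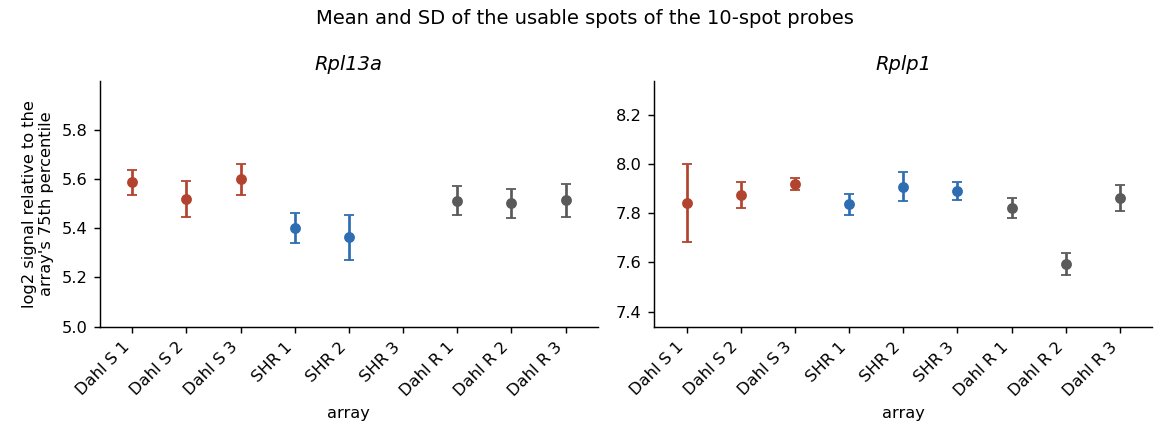
Mean (point) and SD (bar) of the usable spots of the 10-spot probes of Rpl13a and Rplp1 on each array, as log2 signal over the 75th percentile of the array; each panel spans 1 log2 unit. The bars reach 0.09 at most for Rpl13a and 0.16 for Rplp1, and Rpl13a has no usable spot on SHR replicate 3.

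Other lists, of genes that work with the ribosome, of the mTOR pathway and of mitochondrial ribosomal proteins, were counted in the same way. In Dahl S against Dahl R no gene was called in the lists below. Some estimates there were too wide to show like levels, with an SE of 2.23 for Eif5b and of 2.10 for Nip7. Counts in SHR against Dahl R stand beside the 7.56% of all probes called higher and the 5.49% called lower there. In SHR against Dahl R, 1 of 37 elongation and initiation factors was higher and 0 were lower. That gene, Eef1e1, encodes a scaffold of the aminoacyl-tRNA synthetase complex. It was at 1.33, 1.27 and 1.16 in Dahl S, at 2.48 and 2.31 in SHR replicates 1 and 2, and at 1.39, 1.27 and 1.43 in Dahl R. The SHR values lay above all Dahl values, 2.04-fold above Dahl R (adjusted p of 0.0021).

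Among 43 ribosome biogenesis factors, 1 was higher and 2 were lower in SHR than in Dahl R. Rrs1, needed to bring the 5S particle into the 60S precursor in yeast, was at 2.90, 2.62 and 2.71 in Dahl S, at 1.22, 1.06 and 1.07 in SHR, and at 2.62, 2.68 and 2.64 in Dahl R. The SHR values were below all others, 2.89-fold lower than Dahl R (adjusted p of 1.1e-04). Nob1, the nuclease that finishes 18S rRNA, fell by 0.55 ± 0.09 relative to Dahl R (adjusted p of 0.0088). Nop58, a core protein of box C/D snoRNPs, rose by 0.51 ± 0.10 (adjusted p of 0.019).

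The 54 tested mitochondrial ribosomal proteins had 5 genes lower in SHR than in Dahl R (5.49% of all probes) and 0 higher (7.56% of all probes). The largest differences were those of Mrpl57 at -1.07 ± 0.12, Mrpl16 at -1.02 ± 0.15 and Mrpl4 at -0.99 ± 0.10, with adjusted p of 0.0016, 0.0053 and 7.1e-04. Mrpl4, a protein of the large mitochondrial subunit, was at 3.72, 3.62 and 3.71 in Dahl S, at 2.83, 2.72 and 2.55 in SHR, and at 3.65, 3.69 and 3.72 in Dahl R. SHR stood below both Dahl strains without overlap, while the median of the list in SHR minus Dahl R was 0.002. Of 14 other mRNAs with a terminal oligopyrimidine tract, Pabpc1 was called lower in SHR. Several of the 14, most of them elongation and initiation factors, are also counted in the lists above. Pabpc1, the cytoplasmic poly(A)-binding protein, read 3.64 on SHR replicate 3, against 5.30 to 5.37 in Dahl R, and its spots on SHR replicates 1 and 2 were marked, so the call rests on that one array. Of 28 genes of the mTOR pathway, 3 were higher and 1 was lower in SHR, where 13.0% of all probes were called. Rragd, a GTPase that brings mTOR complex 1 to the lysosome, was the lower one, at -1.56, -1.85 and -2.34 in SHR, against -0.65, -0.44 and -0.30 in Dahl R (adjusted p of 0.0034). The inhibitors Tsc1 and Tsc2 were higher, by 1.03 ± 0.24 (adjusted p of 0.029) and 0.48 ± 0.13 (adjusted p of 0.049). Under alternative processing the Tsc1 call held in 9 of 22 fits and the Tsc2 call in 6 of 23. The Tsc1 probe was well above background on 5 of 9 arrays, and its direction turned under quantile normalization (-0.05) and in the authors' deposited values (-0.08). Dahl S against SHR gave 0 higher and 1 lower of the 37 elongation and initiation factors, and 2 and 1 of the 43 biogenesis factors. It gave 4 and 1 of the 54 mitochondrial ribosomal proteins and 1 and 0 of the 14 other tract mRNAs. Of the 28 mTOR pathway genes it gave 5 and 1. These counts stand beside the 7.08% of all probes called higher and the 8.62% called lower in Dahl S against SHR.

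Markers of kidney cell types were measured in the same samples. All 6 proximal tubule markers on the array were well above background on all 9 arrays, which goes with the labelled tissue. Their summed log2 level was 9.18 to 9.30 in Dahl S, 8.43 to 9.15 in SHR and 9.11 to 9.36 in Dahl R. Of the 6, 1 was called lower in SHR than in Dahl R, against 5.49% of all probes. Sums leave out marked spots, so an array with marked spots can sum fewer markers than another, and its sum is then lower for that reason alone. Beside the lower Rpl22l1 of SHR, 3 marker lists also separated SHR from both Dahl strains. The 2 tested distal tubule markers summed to 6.39 to 6.78 in Dahl S, 6.94 to 7.35 in SHR and 6.43 to 6.80 in Dahl R. The 3 tested endothelial markers, 2 of them well above background throughout, summed to 3.3 to 3.49 in Dahl S, 3.59 to 4.0 in SHR and 3.33 to 3.36 in Dahl R. The 6 leukocyte markers, 4 of them well above background throughout, summed to 4.90 to 5.19 in Dahl S, 4.18 to 4.54 in SHR and 4.80 to 4.97 in Dahl R. The one leukocyte marker called in SHR against Dahl R, Itgam, was higher there, by 1.09 (adjusted p of 0.042). On collecting duct markers, all 5 well above background throughout, 3 of 5 were called higher in SHR than in Dahl R, against 7.56% of all probes. The collecting duct sums were 6.86 to 7.22 in Dahl S, 7.53, 7.31 and 7.08 in SHR and 6.81 to 7.17 in Dahl R. Fat cell markers, all 4 well above background throughout, had 2 of 4 called higher there, against the same 7.56% of all probes. Their sums were 3.82 to 4.44 in Dahl S, 5.09, 5.62 and 2.66 in SHR and 3.63 to 4.71 in Dahl R. In both lists SHR replicates 1 and 2, on which Rpl22l1 and Rpl19 rest, lay above every Dahl array, and replicate 3 did not. Of 4 red cell markers, 3 well above background throughout, 2 were called higher in Dahl S against SHR (7.08% of all probes). In SHR against Dahl R, 1 was lower (5.49% of all probes). Their sums overlapped between SHR and both Dahl strains. The 2 tested smooth muscle and fibroblast markers summed to 5.33 to 5.85 in Dahl S, 2.88 to 4.56 in SHR and 4.17 to 4.36 in Dahl R. Of these, 1 was called higher in both Dahl S comparisons (0.705% and 7.08% of all probes). The part of these markers in the Rpl22l1 and Rpl19 differences was not tested.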

How the data were processed

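One scanner file for each array was deposited. The software was Agilent Feature Extraction, version 10.5.1.1, as the file headers and the submitters' processing notes give it. Per the file headers, its processed signal is an intensity, background-subtracted and detrended within the array, with no normalization between arrays. Deposited marks say whether a spot is an outlier, saturated or well above background. A table of values deposited by the authors for 19407 probes, read as log2 from their fit to the scanner signals and of unstated normalization, served as an alternative.

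Here log2 processed signals were centred on each array by subtracting the log2 of its 75th percentile. Marked spots were dropped and the spots of a probe averaged. A gene with several tested probes stands by its brightest. Differences were fitted with limma 3.58.1 in R 4.3.3 over all 9 arrays, with Benjamini-Hochberg adjustment over 16592 tested probes and a threshold of 0.05. In simulated data with these spreads, 55% of 2-fold and 75% of 4-fold changes were recovered in Dahl S against Dahl R. The changed probes were drawn at random from all tested probes. Their within-strain SD has a higher median than that of the members, so these rates are not those of the members. Alternatives changed the background step, scaling, filters, marked spots, blocks and arrays used.

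Same-numbered samples did not deviate together (r of -0.16 to 0.07 over 9 pairs). With 3 arrays for each strain this check is weak and cannot exclude a pairing by number, which no label gives. Named genes were the called members, the 5 largest differences in each comparison, paralog pairs and a set fixed for known roles, and at most 3 called genes of each other list. Rps12l4, Rps12, Rpl13a, Rpl36al1, Eif5b, Nip7 and the genes called without SHR replicate 3 were named after their values were seen. Members and lists were chosen with earlier results of these data known. The list of ribosomal proteins with other symbols is not reported here.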

Additional observations from a re-analysis of the deposited data

How the results depend on the processing

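The number of arrays limits these results, since most SHR values of the ribosomal protein genes rest on 2 arrays. Signal over background limits the few dim members, and calls also depended on the background step and the scaling. In what follows, D-R stands for Dahl S against Dahl R, H-R for SHR against Dahl R and D-H for Dahl S against SHR. Rpl22l1 was lower in SHR in H-R under every alternative run. Of the named genes' values under the alternatives, 1543 kept their direction and side of the threshold, 62 lost and 13 gained a call, and 57 turned, none of these with an adjusted p under 0.05. The cause was not tested where none is named.

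Leaving out each array in turn gave 74 to 761 probes called in D-R, 960 to 3772 in H-R and 1280 to 4345 in D-H, against 233, 2165 and 2605 with all arrays. Ribosomal protein genes called higher then ranged from 0 to 0 in D-R, 0 to 1 in H-R and 0 to 7 in D-H. Those called lower ranged from 0 to 0, 1 to 2 and 0 to 1. Their median difference ranged from 0.04 to 0.09, from -0.06 to 0.01 and from 0.06 to 0.14.

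With a 75th percentile over unmarked spots alone, 40, 503 and 626 probes were called, and 0 ribosomal protein genes were called by limma in H-R or D-H, where this moved the median of all probes by 0.32 and -0.32. In H-R Rplp1 turned to 0.35, and in D-H Rplp0 turned to -0.34, Rplp1 to -0.25 and Rplp2 to -0.29. Normexp background correction gave 43, 416 and 550 probes, with 0 ribosomal protein genes lower in H-R and 0 higher in D-H by limma. It put 65.1%, 41.1% and 70.4% of the calls on the higher side, against 50.2%, 57.9% and 45.1% without it. The genes' median became -0.099 in D-R and -0.052 in D-H. In D-R, normexp turned Rpl36a to 1.2, Rpl39 to -0.090, Rpl5 to -0.11, Rpl7 to -0.086, Rplp0 to -0.072, Rplp1 to -0.059, Rps19 to -0.027, Rps27 to -0.00095 and Rps27a to -0.093. In D-H it turned Rpl27a to 0.65, Rpl36a to 0.53, Rpl39 to -0.078, Rpl7 to -0.018, Rplp0 to -0.14, Rplp1 to -0.058, Rplp2 to -0.13 and Rps27 to -0.018. Quantile normalization moved the median of all probes by -0.12 in H-R and 0.12 in D-H. It turned Rplp1 to -0.0081 in D-R, Tsc1 to -0.051 in H-R and Rplp2 to -0.11 in D-H.

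With no filter on dim probes, 93, 1188 and 1491 probes were called and 1 ribosomal protein gene was higher in D-H. A stricter filter gave 2 lower in H-R. With marked spots kept, Rpl39 became 0.11 and Rpl5 -0.043 in H-R, and Rpl39 became -0.012 and Rpl5 0.12 in D-H. The authors' deposited values gave 1 gene higher in D-H, and turned Rpl39 to 0.10, Rpl5 to -0.0054 and Tsc1 to -0.084 in H-R, and Rpl5 to 0.13 and Rplp2 to -0.095 in D-H.

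With the scan as a block, 866 probes were called in D-H, 61.3% of them higher, with 0 ribosomal protein genes by limma. In H-R the block gave 1 higher (Rps12l4), and it turned Rpl36a to -0.20 in H-R and to 0.19 in D-H. Within the scan that holds all 3 Dahl S arrays and Dahl R replicate 1, 32 probes were called in D-R. Within the other shared scan, Rpl36a was -0.20 in H-R. With the replicate number as a block, 75, 1424 and 1902 probes were called, and the same ribosomal protein genes were called as without it. No label says that the numbers pair the samples.

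Array weights gave 2313, 5340 and 6127 probes, with 3 ribosomal protein genes higher in D-R, 4 higher and 2 lower in H-R, and 9 higher and 3 lower in D-H. They turned Rpl27a to -0.037 in H-R and 0.57 in D-H. Fits on only the arrays compared, which have fewer samples, gave 746, 1138 and 1076 probes and 0 ribosomal protein genes in D-H by limma. Over fits that left out 1 array, Rpl27a ranged from -0.093 (without SHR replicate 3) to 1.18 (without SHR replicate 2) in H-R and from -0.80 to 0.47 in D-H. Rpl36a ranged from -0.11 (without SHR replicate 3) to 0.92 (without SHR replicate 1) in H-R. Rps4y2 ranged from -0.38 (without Dahl S replicate 1) to 0.068 (without Dahl S replicate 2) in D-H. Rpl13 ranged from -4.65 (without Dahl S replicate 3) to 0.089 (without Dahl S replicate 1) in D-R and from -4.61 to 0.12 in D-H, and Rps14 from -3.65 to 0.20 and from -3.75 to 0.11. Dropping only the Rpl13 and Rps14 spots of Dahl S replicate 1, chosen after seeing the data, gave the same upper values. An alternative chosen after seeing the data left out both Dahl S replicate 1 and SHR replicate 3. It gave 703, 4346 and 4352 probes, 1 gene higher and 2 lower in H-R, and 3 higher and 1 lower in D-H, with Rpl13 at 0.089 and 0.12, Rps14 at 0.20 and 0.11, Rpl27a at -0.093 in H-R and 0.47 in D-H, and Rpl36a at -0.11 in H-R.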
